A study of Homo sapiens with 15 samples.

Results

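Clustered protocadherins are cell surface proteins of the cadherin superfamily, encoded in 3 gene clusters (alpha, beta and gamma) that lie next to each other on the long arm of chromosome 5. The count table held 53 of them among its 58735 genes, namely every protein-coding gene of chromosome 5 whose symbol starts with PCDHA, PCDHB or PCDHG followed by a number or by A, B or C. Of these, 15 belong to the alpha, 16 to the beta and 22 to the gamma cluster. RNA was sequenced from 15 cell line-derived xenograft (CDX) tumors, which are human cancer cells grown in mice, with 5 tumors each of the cholangiocarcinoma (CCA) lines HuCC-A1 and HuCC-T1, both intrahepatic, and EGI-1, which is extrahepatic. All hosts were NRG mice (non-obese diabetic, Rag1-/- and IL2Rgc-/-), aged 8 weeks, that received PBS as the vehicle intraperitoneally once a week. Treatment lasted 6 weeks for HuCC-A1 and 4 weeks for EGI-1 tumors, and its length for HuCC-T1 is not stated in the sources used here. The series was made to describe tumors with a high or low response to an antibody against CLDN1. Each model is 1 cell line, so line, response and duration cannot be told apart, and the p-values given here reflect only how tumors of 1 line varied.

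Each clustered protocadherin gene has its own promoter and its own large variable exon, which encodes the extracellular cadherin repeats. In the alpha and gamma clusters this exon is spliced to small constant exons that all members of the cluster share and that encode a common cytoplasmic end, whereas beta genes are made of a single exon. The genes are best known from neurons, where each cell turns on a small set of promoters, in part at random, through CTCF and cohesin, and where the resulting combination gives the cell an adhesive identity. SMCHD1 and DNA methylation keep unused promoters silent. The C-type genes at the end of the alpha and gamma clusters are turned on less at random than the others.

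All 53 genes lie on the forward strand of GRCh38. The alpha genes occupy chr5:140786136-141012347, the beta genes chr5:141051135-141249365 and the gamma genes chr5:141330571-141512981, by the coordinates of GENCODE release 29. Constant exons of 59 and 89 bases are annotated in all 15 alpha genes, and exons of the same lengths in all 22 gamma genes. The last constant exon, of 2718 bases in the alpha and 2033 bases in the gamma cluster, is annotated with identical ends in 14 and 21 genes. PCDHA1 and PCDHGA1 share its bases too, with an annotated end a few bases farther. The first constant exon of the alpha cluster (chr5:140978949-140979007) and that of the gamma cluster (chr5:141494807-141494865) are shown because a read that lies wholly within one cannot be assigned to 1 member.

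Alpha constant exon: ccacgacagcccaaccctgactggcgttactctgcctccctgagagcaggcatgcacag
Gamma constant exon: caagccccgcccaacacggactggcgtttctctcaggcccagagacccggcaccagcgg

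Exon bases that no other annotated gene shares made up between 36.9 and 78.7% of an alpha gene (median 50.6%) and between 35.6 and 72.4% of a gamma gene (median 56.1%). In beta genes they made up between 75.1 and 100% (median 94.9%). No beta gene shares an exon base with another member. Sequence repeats add to this. Among stretches of 50 bases in a gene's unshared exons, between 1.40 and 45.1% of those of a beta gene (median 13.0%) also occurred in another gene, with 45.1% for PCDHB8 and 33.5% for PCDHB10. The same share ran from 0 to 28.1% in alpha and from 0 to 21.3% in gamma genes. Reads of shared exons had not been added to every member. In each HuCC-A1 tumor the lowest gamma gene held between 0 and 11 counts, beside 4641 to 8194 counts in the whole gamma cluster. It held between 1 and 9 counts in EGI-1 and between 0 and 2 in HuCC-T1 tumors. Levels between genes are therefore compared per kilobase of unshared exon, and those of genes with many repeated stretches remain uncertain.

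Promoters of 47 of the 53 genes are in the RefSeq table for GRCh38.p14. The letters CGCT, the core of a conserved element known to sit upstream of most clustered protocadherin starts, were searched on the sense strand between 120 and 20 bases before the start. They were found for 43 of the 47 (91.5%), against 28.0% of 27305 promoters of all genes, 1 per gene. They lay between 38 and 95 bases before the start (median 55). Where a promoter had several in this window, a single one was kept by its closeness to a fixed position. These distances therefore partly reflect that choice. PCDHA9, PCDHB5, PCDHB8 and PCDHGB2 had none in this window. With either strand searched, from 250 bases before the start to the end of the promoter in the table, CGCT was present in 46 of 47 members and in 69.4% of all promoters. In each cluster, the most frequent 10-letter word around the CGCT kept for each promoter was then looked up on either strand. In the alpha cluster it was TGATGTCGCT, in 8 of 13 alpha promoters, no beta or gamma promoter and 0.0403% of all promoters. In the beta cluster it was GGTGGCGCTG, in 12 of 14 beta promoters, no other member and 0.297% of all promoters. In the gamma cluster it was GCGCCGCTGT, in 9 of 20 gamma promoters, no other member and 0.121% of all promoters. These words were picked for being frequent in their own cluster, so the counts within it are a description. PCDHAC2, PCDHB1, PCDHGC4 and PCDHGC5 are known to lack the conserved element, so that CGCT before PCDHAC2, PCDHB1 or PCDHGC4 is a match of these letters only. Windows of 60 bases around CGCT are shown for members that were high in at least 1 model and for others that were low, with every CGCT in capitals.

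PCDHA4: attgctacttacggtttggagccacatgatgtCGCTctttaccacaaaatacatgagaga
PCDHA8: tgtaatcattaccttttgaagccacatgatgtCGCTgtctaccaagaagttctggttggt
PCDHAC2: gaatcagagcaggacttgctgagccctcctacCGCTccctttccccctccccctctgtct
PCDHB14: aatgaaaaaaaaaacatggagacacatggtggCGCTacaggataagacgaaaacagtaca
PCDHGB4: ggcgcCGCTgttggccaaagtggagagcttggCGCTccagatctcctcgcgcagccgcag
PCDHGB5: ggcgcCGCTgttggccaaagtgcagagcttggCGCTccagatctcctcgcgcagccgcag
PCDHGB6: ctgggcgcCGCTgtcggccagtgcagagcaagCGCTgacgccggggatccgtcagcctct
PCDHGA8: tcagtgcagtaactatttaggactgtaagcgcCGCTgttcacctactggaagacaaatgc
PCDHGA10: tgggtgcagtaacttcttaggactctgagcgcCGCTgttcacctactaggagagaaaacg
PCDHGC3: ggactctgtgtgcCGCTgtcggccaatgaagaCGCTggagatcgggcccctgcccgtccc
PCDHGC4: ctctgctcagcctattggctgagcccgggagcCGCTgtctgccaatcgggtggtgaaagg

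These windows lie at chr5:140806963-140807022, chr5:140841114-140841173, chr5:140966403-140966462, chr5:141223247-141223306, chr5:141387628-141387687, chr5:141397874-141397933, chr5:141407932-141407991, chr5:141392552-141392611, chr5:141412915-141412974, chr5:141475883-141475942 and chr5:141484936-141484995, in the order shown and on the forward strand. The windows of PCDHGB4 and PCDHGB5 differ at 1 of 60 bases, and those of PCDHGA8 and PCDHGA10 at 12. The 250 bases before the start of PCDHA4 (chr5:140806818-140807067) and of PCDHGA10 (chr5:141412737-141412986), the alpha and gamma genes with the highest mean CPM in HuCC-A1 tumors, are given in full with CGCT in capitals.

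PCDHA4 upstream: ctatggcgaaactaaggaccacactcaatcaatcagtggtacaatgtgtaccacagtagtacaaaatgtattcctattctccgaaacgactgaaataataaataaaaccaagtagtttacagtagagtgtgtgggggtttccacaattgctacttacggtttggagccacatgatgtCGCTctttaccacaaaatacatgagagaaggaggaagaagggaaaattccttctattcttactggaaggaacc
PCDHGA10 upstream: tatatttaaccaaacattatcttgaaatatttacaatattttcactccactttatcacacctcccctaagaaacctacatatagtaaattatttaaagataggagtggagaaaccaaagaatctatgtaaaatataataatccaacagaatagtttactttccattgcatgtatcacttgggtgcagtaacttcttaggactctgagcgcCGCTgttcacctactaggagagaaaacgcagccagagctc

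Levels are raw counts scaled to a common library total with TMM factors (CPM, counts per 1000000). The 21019 genes that passed edgeR's filter on low counts were tested together over all 15 tumors with its quasi-likelihood test. Genes with a p under 0.05 after Benjamini-Hochberg adjustment over these genes are described as called, higher or lower. Differences are given as log2 fold changes (log2FC) with their standard errors (SE). Of the 53 members, 42 passed the filter. All 16 beta and all 22 gamma genes passed, but of the alpha genes only PCDHA4, PCDHA5, PCDHA10 and PCDHAC2. Total counts per tumor ranged from 20001412 to 33585265 in HuCC-A1, from 34239460 to 44067878 in EGI-1 and from 26163778 to 33984103 in HuCC-T1 tumors. Epithelial markers were present in all models, with KRT19 at 2827 ± 207, 8940.0 ± 2089 and 4864 ± 2331 CPM (SD, n = 5, for HuCC-A1, EGI-1 and HuCC-T1). Of 8 epithelial and biliary markers, 6 were lower and 1 was higher in HuCC-A1 tumors than in EGI-1, beside 26.0% of all genes lower and 29.4% higher. The 13 neuronal markers together reached only 17.3 to 20.5 CPM in HuCC-A1, 13.6 to 19.1 CPM in EGI-1 and 9.92 to 15.7 CPM in HuCC-T1 tumors. Of 7 that were tested, 3 were higher and 2 lower in HuCC-A1 tumors than in EGI-1, beside the same shares of all genes. INA and NEFM had no count in HuCC-A1 tumors. SYT1, a synaptic vesicle protein, had 11.8 ± 2.31 CPM there against 0.665 ± 0.554 and 0.955 ± 0.547 CPM in EGI-1 and HuCC-T1 tumors, whereas the cytoskeletal genes MAP2 (log2FC -1.65, adjusted p = 5.36e-04) and TUBB3 (log2FC -3.00, adjusted p = 7.8e-05) were the lower pair. Fibroblast markers, whose 8-gene sum was 422.7 to 946.8 CPM in HuCC-A1, 73.7 to 127.1 CPM in EGI-1 and 96.8 to 503.7 CPM in HuCC-T1 tumors, all had counts in every model. The matrix gene COL3A1 had 638 ± 245 CPM in HuCC-A1 tumors against 9.27 ± 8.25 and 8.56 ± 3.61 CPM in the EGI-1 and HuCC-T1 models, and COL1A1 had 17.5 ± 4.43, 84.4 ± 18.6 and 375 ± 165 CPM. The 4 endothelial markers summed to between 15.1 and 30.6 CPM for HuCC-A1, 2.57 and 4.22 CPM for EGI-1 and 12.0 and 24.2 CPM for HuCC-T1 tumors, with no count of KDR in HuCC-T1. The 4 leukocyte markers summed to between 6.98 and 15.6, 12.6 and 25.4 and 8.19 and 22.4 CPM. In these tumors only the cancer cells are human, so that fibroblasts, endothelium and leukocytes belong to the mouse hosts. Counts of their markers can come from the cancer cells or from mouse reads, whose removal is not stated. Which of these it was, and the part of any such cells in the results below, was not tested. In bulk tumors, fewer cells that express a gene and less of its RNA per cell cannot be told apart.

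The 3 clusters differed between models in their own ways. The alpha cluster was high in HuCC-A1 tumors only, the beta cluster had similar sums in HuCC-A1 and EGI-1 tumors and lower ones in HuCC-T1 tumors, and the gamma cluster was highest in HuCC-A1 tumors. Summed over its 15 genes, the alpha cluster had 43.8, 24.9, 22.7, 39.2 and 31.4 CPM in HuCC-A1 replicates 1 to 5, a mean of 32.4 ± 9.04 CPM (SD, n = 5). The alpha sums were 0.701, 1.69, 0.414, 0.698 and 0.639 CPM in EGI-1 and 3.58, 2.28, 3.25, 2.86 and 3.67 CPM in HuCC-T1 tumors, so that no 2 models overlapped. Beta sums were 177.7, 125.3, 172.6, 170.8 and 200.4 CPM in HuCC-A1 tumors (169.4 ± 27.4 CPM, SD, n = 5), and 143.0, 178.6, 173.7, 161.1 and 191.9 CPM in EGI-1 tumors (169.7 ± 18.6 CPM, SD, n = 5). Those of HuCC-T1 tumors, at 90.7, 49.4, 77.0, 65.5 and 54.5 CPM (67.4 ± 16.8 CPM, SD, n = 5), lay below every tumor of both other models. Gamma sums were 289.8, 231.7, 167.5, 253.9 and 245.8 CPM in HuCC-A1 tumors (237.7 ± 44.7 CPM, SD, n = 5). They were 38.3, 43.3, 58.5, 63.5 and 67.9 CPM in EGI-1 tumors (54.3 ± 12.9 CPM, SD, n = 5) and 64.4, 69.0, 98.3, 92.2 and 82.3 CPM in HuCC-T1 tumors (81.2 ± 14.5 CPM, SD, n = 5). All HuCC-A1 tumors exceeded all others in the gamma sum, while EGI-1 and HuCC-T1 tumors overlapped. These sums are given without a test.

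**Figure D1:**
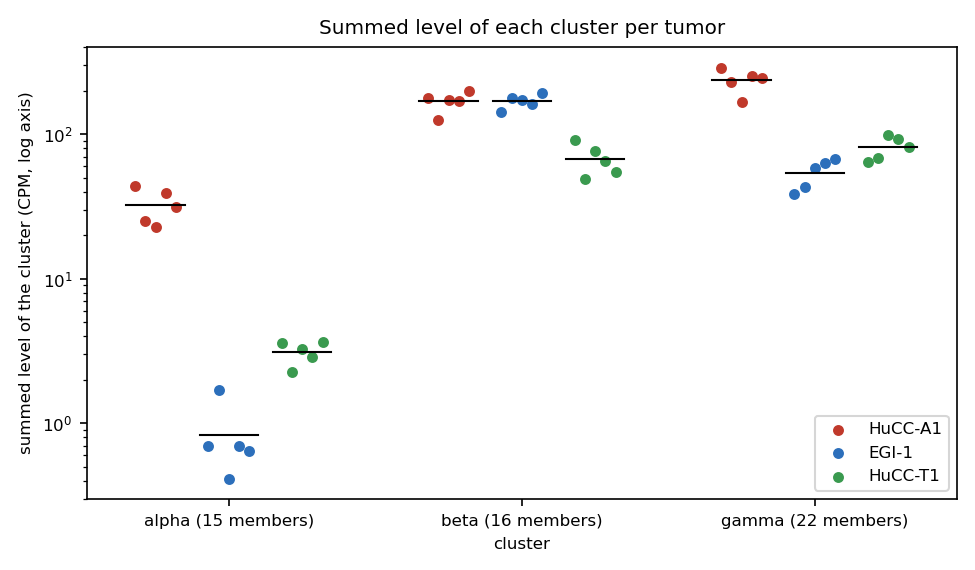
Summed level of the members of each cluster in CPM (log axis), where each point is a tumor (replicates 1 to 5 from left to right) and the black lines mark means. The alpha sums of HuCC-A1 tumors, 22.7 to 43.8 CPM, stand above those of EGI-1 tumors, 0.414 to 1.69 CPM, whereas the beta sums of these models lie together.

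**Figure D2:**
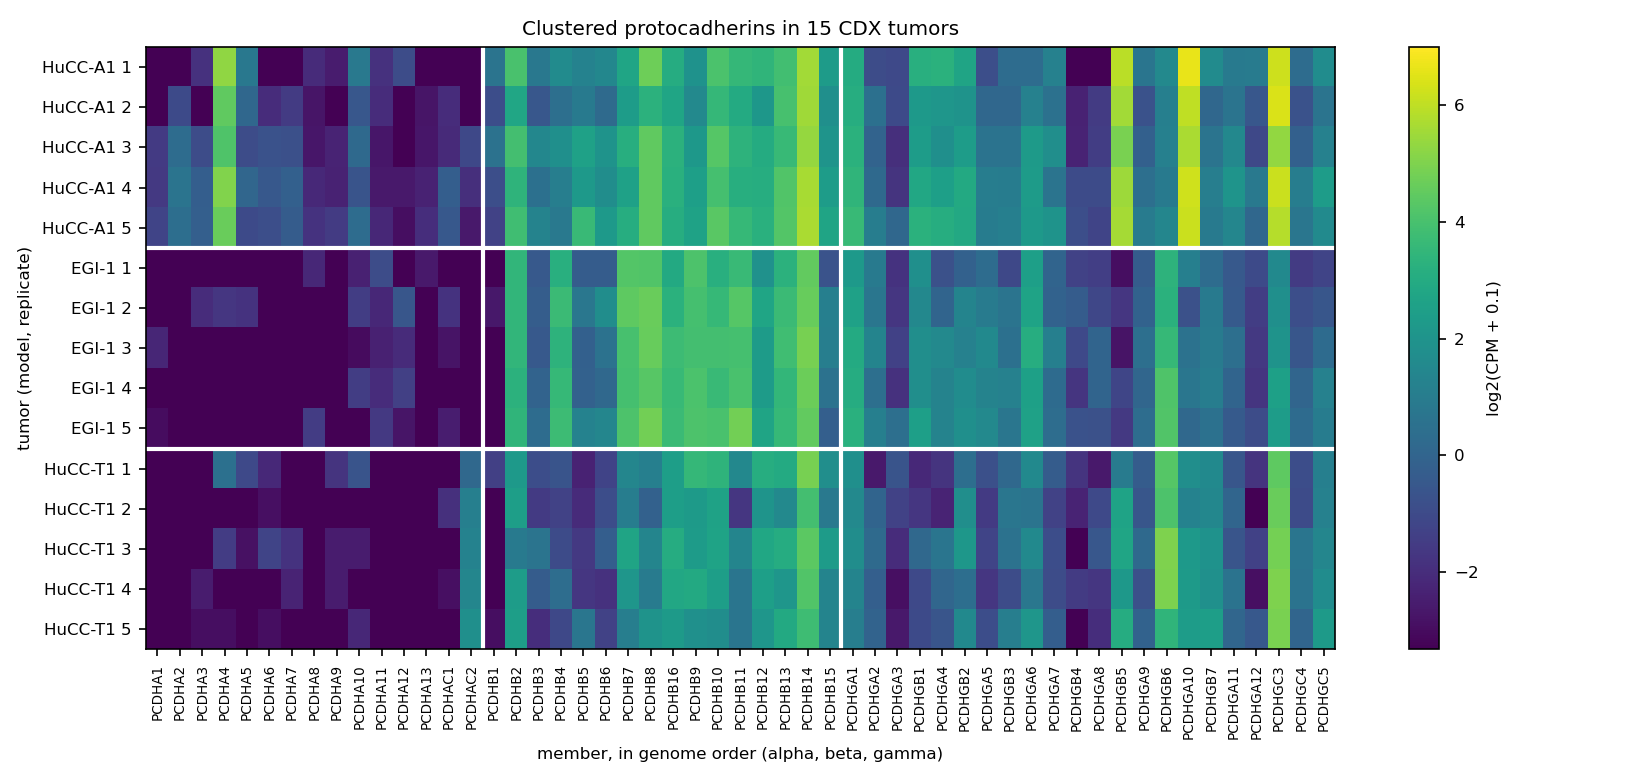
Level of each of the 53 members (columns, in genome order, white lines between the alpha, beta and gamma clusters) in each of the 15 tumors (rows), as log2 of CPM plus 0.1. A few bright columns, such as PCDHA4, PCDHGB5 and PCDHGA10 in HuCC-A1 tumors and PCDHGB6 in EGI-1 and HuCC-T1 tumors, stand beside neighbors that are dark in the same tumors.

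Across the 42 tested members, 18 were higher and 4 were lower in HuCC-A1 tumors than in EGI-1, and the test called neither direction for 20. Of all 21019 genes, 29.4% were called higher and 26.0% lower in this comparison (55.4% in either direction), so that the share of members called (52.4%) was near the background while their direction was more often higher (42.9%) than lower (9.52%). The higher members were 4 alpha, 4 beta and 10 gamma genes, and the lower ones 3 beta genes and PCDHGB6. Of these, PCDHA4, PCDHA5, PCDHA10, PCDHB1 and PCDHGA12 would not have passed the filter without their levels in HuCC-A1 tumors. The filter thus favored a call of higher for them, and the counts and shares above include them. The median log2FC was 0.71 over the members and 0.06 over all genes tested. Of the 18 higher members 15 differed at least 2-fold, as did all 4 lower ones.

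In HuCC-T1 against EGI-1 tumors, 9 members were higher and 17 lower, and 16 were not called, beside 27.3% of all genes higher and 25.0% lower (52.3% in either direction). Of the members 21.4% were higher and 40.5% lower. The beta cluster held 10 of the lower members and 1 higher one, PCDHB15, and the gamma cluster 7 lower and 6 higher ones. Both called alpha genes, PCDHA4 and PCDHAC2, were higher, and PCDHAC2 passed the filter only through its levels in HuCC-T1 tumors. The median log2FC was -0.65 over the members and 0.06 over all genes. Without HuCC-T1 replicate 3 the number of higher members was 6.

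In HuCC-A1 against HuCC-T1 tumors, both intrahepatic, 26 members were higher and 3 lower, and 13 were not called, beside 29.1% of all genes higher and 27.2% lower (56.3% in either direction). Of the members 61.9% were higher and 7.14% lower. The higher ones were 3 alpha, 12 beta and 11 gamma genes, all with at least a 2-fold difference, and the lower ones were PCDHAC2, PCDHGB6 and PCDHGB7. The median log2FC was 1.40 over the members and 0.05 over all genes. The 3 comparisons share tumors. Each count, share and median is over the members that passed the filter only. The tested alpha genes, PCDHB1 and PCDHGA12 needed the levels of a single model to pass it, which favored calls toward that model. Under a filter of 10 or more counts in every tumor, 21 members were tested, and 8 were higher in HuCC-A1 tumors than in EGI-1, 9 lower in HuCC-T1 than in EGI-1 and 11 higher in HuCC-A1 than in HuCC-T1 tumors. The counts in the opposite directions stayed within 1.5 times those given above, so that 1 direction prevailed less under this filter. The shares of all genes called under it are not given here.

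**Figure D3:**
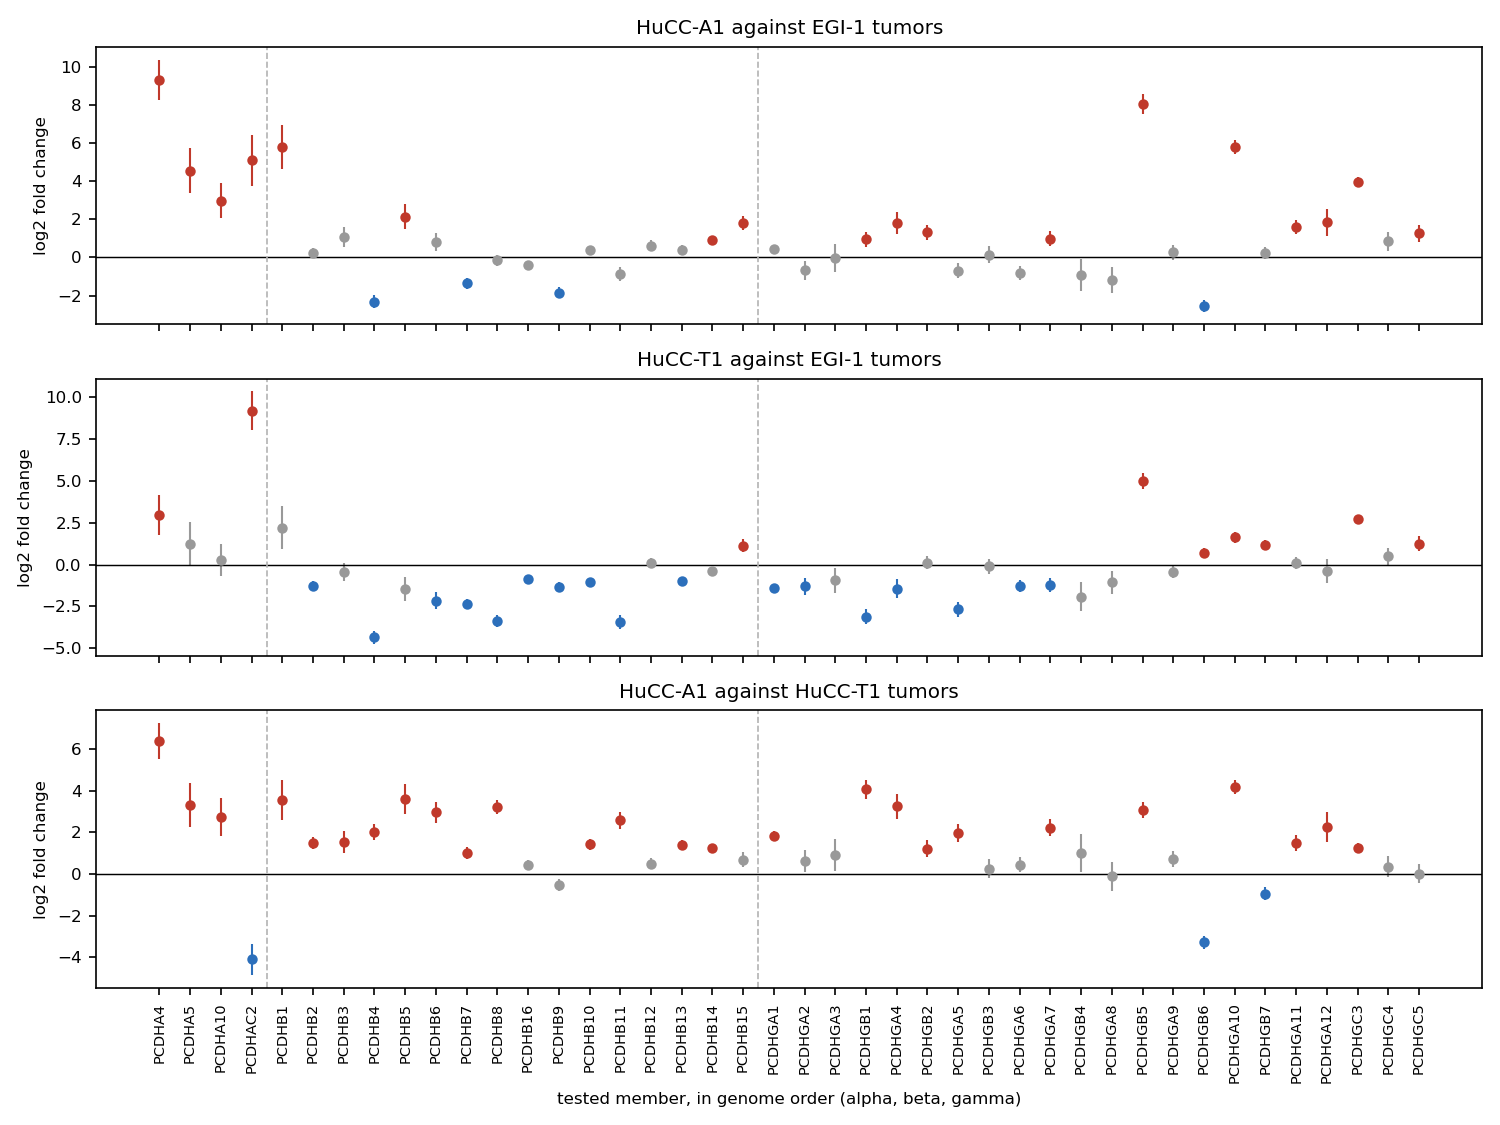
Log2FC of the 42 tested members in genome order (dashed lines between alpha, beta and gamma) in the 3 comparisons, with bars for the SE. Red points were called higher and blue points lower in the model named first, and gray points were not called. The position of PCDHA4, PCDHAC2 and PCDHB1 rests on very few counts in at least 1 model.

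In the alpha cluster, a single gene led each intrahepatic model, and it was a different gene in each. PCDHA4 held between 77.6 and 90.1% of the alpha counts of HuCC-A1 tumors, and PCDHAC2 held between 28.6 and 94.1% (median 90.1%) of those of HuCC-T1 tumors, with the lowest share in replicate 1, where PCDHA4 held 36.6%. EGI-1 tumors had 146 alpha counts in all 5 libraries together, spread over 10 genes, and no alpha gene reached a mean of 1 CPM there.

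PCDHA4, an alpha gene with a variable exon of its own and 78.7% unshared exon bases, had 39.4, 22.1, 17.6, 32.5 and 25.0 CPM in HuCC-A1 replicates 1 to 5. In EGI-1 tumors it had 0.212 CPM (7 counts) in replicate 2 and no count in the others, and in HuCC-T1 tumors it had 1.31, 0, 0.262, 0 and 0.0311 CPM. Every HuCC-A1 tumor was thus far above every tumor of both other models. The difference to EGI-1 tumors had a log2FC of 9.32 (SE 1.07, adjusted p = 1.13e-06 from edgeR), which rests on the counts of EGI-1 replicate 2. Without that tumor, and with a floor of 3 counts over the other 4, PCDHA4 was at least 1364-fold higher in HuCC-A1 tumors. Against HuCC-T1 tumors it was 82.8-fold higher (log2FC 6.37, SE 0.867, adjusted p = 8.17e-06), with a log2FC of 8.48 without HuCC-T1 replicate 1. Between HuCC-T1 and EGI-1 tumors the groups overlapped, and the call (log2FC 2.95, adjusted p = 0.0463) did not hold without HuCC-T1 replicate 1 (log2FC 0.82, adjusted p = 0.589). It was also lost with DESeq2 (adjusted p = 0.147), with limma-voom (0.255) and in 5 of the 9 other omissions of 1 tumor (0.0593 to 0.0979), whereas its log2FC was 6.40 without EGI-1 replicate 2, a value that depends on the prior count because the other EGI-1 tumors had no count.

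PCDHAC2, a C-type gene at the end of the cluster, had 1.02, 2.07, 2.28, 2.58 and 3.45 CPM in HuCC-T1 replicates 1 to 5. In HuCC-A1 tumors it had 0, 0, 0.373, 0.161 and 0.0613 CPM, and no EGI-1 tumor had a count. The HuCC-T1 tumors were above all others. With a floor of 3 counts over the EGI-1 group, PCDHAC2 was at least 139-fold higher in HuCC-T1 tumors (adjusted p = 1.78e-05 from edgeR) and at least 7.25-fold higher in HuCC-A1 tumors (adjusted p = 0.00512), where 2 tumors had no count either and the other 3 held 21. It was 17.2-fold lower in HuCC-A1 than in HuCC-T1 tumors (log2FC -4.10, SE 0.761, adjusted p = 4.17e-04), and its log2FC was -5.19 without HuCC-A1 replicate 3. The promoter window of PCDHA4 above holds the word frequent in alpha promoters, and that of PCDHAC2 holds CGCT without it. The window of PCDHA8 holds the same word, although PCDHA8 had a mean of only 0.111 CPM in HuCC-A1 tumors.

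PCDHA10 had 1.70, 0.599, 1.07, 0.547 and 1.16 CPM in HuCC-A1 replicates 1 to 5, 0.0914, 0.272, 0.0230, 0.262 and 0 CPM in EGI-1 and 0.543, 0, 0.0747, 0 and 0.124 CPM in HuCC-T1 tumors. The HuCC-A1 tumors were above both other groups, which overlapped. Its log2FC was 2.97 against EGI-1 (adjusted p = 0.0109) and 2.72 against HuCC-T1 tumors (adjusted p = 0.0174, and 4.17 without HuCC-T1 replicate 1). HuCC-T1 and EGI-1 tumors did not pass the test (log2FC 0.25, adjusted p = 0.843). PCDHA5, the remaining tested alpha gene, was higher in HuCC-A1 tumors than in EGI-1 (log2FC 4.55, adjusted p = 0.00329) and HuCC-T1 tumors (log2FC 3.31, adjusted p = 0.0148), at a mean of 0.890 CPM.

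PCDHAC1, the other C-type alpha gene, did not pass the filter, with 0, 0.150, 0.133, 0.740 and 0.613 CPM in HuCC-A1 replicates 1 to 5, 0, 0.181, 0.0460, 0 and 0.0767 CPM in EGI-1 and 0, 0.173, 0, 0.0353 and 0 CPM in HuCC-T1 tumors. PCDHA12, the highest alpha gene of EGI-1 tumors, had 0, 0.574, 0.138, 0.291 and 0.0512 CPM there, 0.424, 0, 0, 0.0643 and 0.0306 CPM in HuCC-A1 and no count in HuCC-T1 tumors, and was not tested either. The other 9 untested alpha genes had mean levels between 0.0706 CPM (PCDHA13) and 0.849 CPM (PCDHA2) in HuCC-A1, between 0 and 0.203 CPM in EGI-1 and between 0 and 0.106 CPM in HuCC-T1 tumors. Per kilobase of unshared exon, PCDHA4 stood at 2.58 CPM in HuCC-A1 tumors, followed by PCDHA2 at 0.323, PCDHA5 at 0.243 and PCDHA7 at 0.153 CPM per kilobase.

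The beta cluster was spread over more genes. HuCC-T1 tumors had 10 of its 16 members lower than EGI-1 tumors, beside 25.0% of all genes, and 12 lower than HuCC-A1 tumors, beside 29.1% of all genes, in comparisons that share the HuCC-T1 tumors. PCDHB14 had the highest mean CPM of the cluster in all 3 models, but with only 23.7 to 36.3% of the cluster's counts in HuCC-A1, 12.0 to 16.8% in EGI-1 and 25.1 to 32.6% in HuCC-T1 tumors. At least 1 CPM on average was reached by 15 beta genes in HuCC-A1, 14 in EGI-1 and 11 in HuCC-T1 tumors.

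PCDHB14 had 47.1, 45.5, 40.9, 49.8 and 51.9 CPM in HuCC-A1 replicates 1 to 5. It had 23.1, 24.4, 29.2, 25.2 and 23.0 CPM in EGI-1 and 29.6, 14.99, 21.2, 18.2 and 13.7 CPM in HuCC-T1 tumors. HuCC-A1 tumors were above all others, and the other groups overlapped. PCDHB14 was 1.88-fold higher in HuCC-A1 tumors than in EGI-1 (log2FC 0.91, SE 0.180, adjusted p = 3.4e-04) and 2.41-fold higher than in HuCC-T1 tumors (log2FC 1.27, SE 0.181, adjusted p = 1.41e-05). Between HuCC-T1 and EGI-1 tumors it had a log2FC of -0.36 (adjusted p = 0.106), which was called without HuCC-T1 replicate 1 (-0.52, adjusted p = 0.00794).

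Per kilobase of unshared exon, the highest beta gene of EGI-1 tumors was PCDHB8, at 9.12 CPM, ahead of PCDHB14 at 5.36 CPM per kilobase. In HuCC-A1 tumors the same genes stood at 8.16 and 10.1 CPM per kilobase, and in HuCC-T1 tumors at 0.881 and 4.19. PCDHB8 had 26.0, 9.84, 22.2, 22.5 and 22.3 CPM in HuCC-A1 replicates 1 to 5, 18.3, 24.5, 24.5, 19.9 and 27.6 CPM in EGI-1 and 2.08, 0.829, 2.47, 1.87 and 3.86 CPM in HuCC-T1 tumors. All HuCC-T1 tumors were below all others, with a log2FC of -3.37 against EGI-1 tumors (SE 0.331, adjusted p = 2.81e-07) and 3.21 for HuCC-A1 against HuCC-T1 tumors (SE 0.330, adjusted p = 3.36e-07). HuCC-A1 and EGI-1 tumors did not pass the test (log2FC -0.16, adjusted p = 0.672). The 45.1% of its stretches that occur in another gene make the level of PCDHB8 uncertain.

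PCDHB4, PCDHB9 and PCDHB7 were the beta genes called lower in HuCC-A1 tumors than in EGI-1. PCDHB4 had 8.99, 12.9, 10.1, 11.8 and 13.5 CPM in EGI-1, 3.04, 1.25, 3.41, 2.03 and 1.72 CPM in HuCC-A1 replicates 1 to 5 and 0.543, 0.311, 0.411, 1.20 and 0.373 CPM in HuCC-T1 tumors. No groups overlapped, and PCDHB4 was 4.98-fold lower in HuCC-A1 (log2FC -2.32, SE 0.344, adjusted p = 2.12e-05) and 20.1-fold lower in HuCC-T1 than in EGI-1 tumors (log2FC -4.33, SE 0.386, adjusted p = 8.76e-08). HuCC-A1 exceeded HuCC-T1 tumors too (log2FC 2.01, adjusted p = 1.56e-04). PCDHB9 had 17.4, 15.6, 14.8, 17.0 and 17.2 CPM in EGI-1, 3.78, 2.80, 4.39, 5.50 and 6.04 CPM in HuCC-A1 replicates 1 to 5 and 11.8, 4.77, 4.97, 7.58 and 3.58 CPM in HuCC-T1 tumors. EGI-1 tumors were above all others (log2FC -1.86, adjusted p = 3.45e-05 in HuCC-A1 and log2FC -1.33, adjusted p = 8.31e-04 in HuCC-T1 tumors). HuCC-A1 and HuCC-T1 tumors overlapped and were not called (log2FC -0.53, adjusted p = 0.121), but were without HuCC-T1 replicate 5 (-0.69, adjusted p = 0.0377). PCDHB7 had a log2FC of -1.36 in HuCC-A1 and -2.37 in HuCC-T1 against EGI-1 tumors.

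PCDHB11 had 12.8, 19.5, 15.6, 16.1 and 27.8 CPM in EGI-1, 11.6, 7.89, 10.1, 8.88 and 11.9 CPM in HuCC-A1 replicates 1 to 5 and 2.75, 0.207, 2.50, 1.52 and 1.49 CPM in HuCC-T1 tumors. The 3 models did not overlap, with HuCC-T1 lowest (log2FC -3.44, SE 0.422, adjusted p = 3.39e-06, against EGI-1 tumors, and log2FC 2.57, adjusted p = 4.43e-05 for HuCC-A1 against HuCC-T1 tumors). HuCC-A1 against EGI-1 tumors did not pass the test (log2FC -0.86, adjusted p = 0.0621) but did with DESeq2 (adjusted p = 0.0491), limma-voom (0.0223), only these 10 tumors (0.00295), no filter on low counts (0.0266) or without EGI-1 replicate 1 (0.049).

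PCDHB5 and PCDHB15 were higher in HuCC-A1 tumors than in EGI-1. PCDHB5 had 2.26, 1.80, 5.94, 4.54 and 12.7 CPM in HuCC-A1 replicates 1 to 5, 0.701, 1.60, 0.805, 0.814 and 2.28 CPM in EGI-1 and 0.0958, 0.138, 0.224, 0.212 and 1.56 CPM in HuCC-T1 tumors. HuCC-A1 replicates 1 and 2 were within the range of EGI-1 tumors, and replicate 5 was the highest tumor of each model. The difference to EGI-1 tumors (log2FC 2.13, SE 0.667, adjusted p = 0.0116) was not called without HuCC-A1 replicate 5 (1.55, adjusted p = 0.0554). Against HuCC-T1 tumors PCDHB5 was 12.0-fold higher (log2FC 3.58, SE 0.726, adjusted p = 4.44e-04), with a log2FC of 5.00 without HuCC-T1 replicate 5. HuCC-T1 against EGI-1 tumors did not pass the test (log2FC -1.45, adjusted p = 0.0901), but did without HuCC-T1 replicate 5 (-2.87, adjusted p = 0.00129). PCDHB15 had 5.02, 3.45, 3.94, 5.05 and 6.47 CPM in HuCC-A1 replicates 1 to 5, 0.518, 2.12, 2.03, 1.40 and 0.767 CPM in EGI-1 and 3.32, 1.73, 5.01, 2.43 and 2.43 CPM in HuCC-T1 tumors. EGI-1 tumors were below every HuCC-A1 tumor (log2FC 1.81, adjusted p = 6.97e-04) and overlapped with HuCC-T1 tumors (log2FC 1.12, adjusted p = 0.0199), a call that was lost without HuCC-T1 replicate 3 (adjusted p = 0.0735) or EGI-1 replicate 5 (0.052). HuCC-A1 and HuCC-T1 tumors had a log2FC of 0.68 (adjusted p = 0.129).

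PCDHB1 was low in all models, with 127 counts over the HuCC-A1, 2 over the EGI-1 and 10 over the HuCC-T1 libraries. The ratio of HuCC-A1 to EGI-1 was 77.6 (95% exact interval 21.0 to 647.9, counting error only), and edgeR called it (adjusted p = 3.95e-04). The remaining 7 beta genes (PCDHB2, PCDHB3, PCDHB6, PCDHB10, PCDHB12, PCDHB13 and PCDHB16) had log2FC values between -0.40 and 1.08 in HuCC-A1 against EGI-1 tumors. None of them was called, which follows from the choice of genes, since every beta gene called in this comparison is described above. Over all 16 beta genes, 43.8% were called, beside 55.4% of all genes in either direction. In HuCC-T1 against EGI-1 tumors they ranged from -2.16 (PCDHB6) to 0.12 (PCDHB12), and 5 were lower, beside 25.0% of all genes. In HuCC-A1 against HuCC-T1 tumors they ranged from 0.45 (PCDHB16) to 2.96 (PCDHB6), and 5 were higher, beside 29.1% of all genes. These 7 genes were left after members had been picked partly for their calls, so their counts only describe what remained.

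The gamma cluster had a different leading set in each model. In HuCC-A1 tumors PCDHGA10, PCDHGC3 and PCDHGB5 together held between 72.2 and 84.3% of its counts. In EGI-1 tumors the 3 leading genes were PCDHGB6, PCDHGA1 and PCDHGA6 with between 48.5 and 52.8%, and in HuCC-T1 tumors PCDHGC3, PCDHGB6 and PCDHGB5 with between 59.9 and 74.2%. The inverse of the summed squared shares gives the number of genes with equal counts that has the same spread. It had a median of 4.83 genes in HuCC-A1, 8.21 in EGI-1 and 4.82 in HuCC-T1 tumors. These shares do not account for gene length. Per kilobase of unshared exon, the order in EGI-1 tumors was PCDHGB6 (2.94 CPM), PCDHGB1 (1.805), PCDHGA1 (1.77) and PCDHGC3 (1.29), with PCDHGA6 at 1.11 CPM per kilobase.

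**Figure D4:**
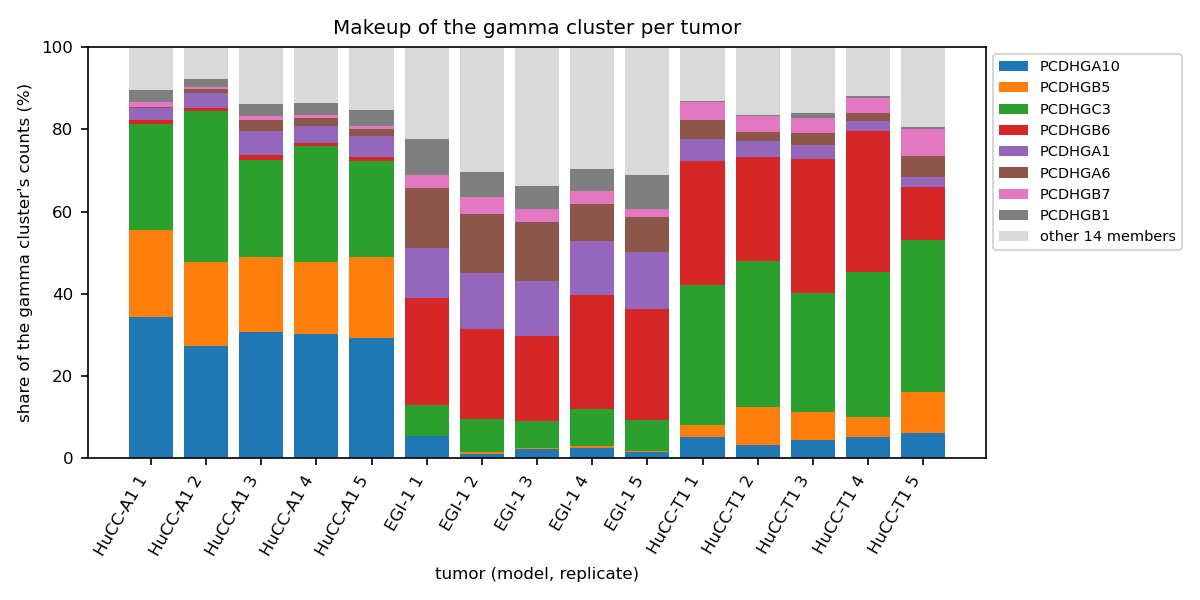
Share of the gamma cluster's counts that each of 8 genes held in each tumor, in percent, with the other 14 members in gray. PCDHGA10 and PCDHGB5 fill between 17.5 and 34.4% each in HuCC-A1 tumors and at most 10.1% in the others, while PCDHGB6 holds at most 1.27% in HuCC-A1 and between 13.1 and 34.2% in EGI-1 and HuCC-T1 tumors.

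PCDHGA10 had 99.7, 63.6, 51.4, 76.8 and 72.0 CPM in HuCC-A1 replicates 1 to 5. It had 2.10, 0.483, 1.38, 1.54 and 1.02 CPM in EGI-1 and 3.32, 2.28, 4.52, 4.90 and 5.10 CPM in HuCC-T1 tumors. The 3 models did not overlap. PCDHGA10 was 55.6-fold higher in HuCC-A1 tumors than in EGI-1 (log2FC 5.80, SE 0.346, adjusted p = 4.19e-10) and 18.1-fold higher than in HuCC-T1 tumors (log2FC 4.17, SE 0.317, adjusted p = 9.03e-09). HuCC-T1 tumors exceeded EGI-1 tumors 3.08-fold (adjusted p = 2.72e-04). PCDHGA8, whose promoter window resembles that of PCDHGA10, had 0.254 ± 0.157, 0.584 ± 0.297 and 0.282 ± 0.211 CPM (SD, n = 5, for HuCC-A1, EGI-1 and HuCC-T1) and was not called in any comparison.

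PCDHGB5 had 61.5, 46.8, 30.5, 44.5 and 48.2 CPM in HuCC-A1 replicates 1 to 5. It had 0.0305, 0.212, 0.0460, 0.349 and 0.230 CPM in EGI-1 and 1.88, 6.29, 6.69, 4.48 and 8.27 CPM in HuCC-T1 tumors. No groups overlapped, and the log2FC values were 8.05 in HuCC-A1 against EGI-1 tumors (SE 0.508, adjusted p = 8.09e-10), 4.98 in HuCC-T1 against EGI-1 tumors (SE 0.474, adjusted p = 1.89e-07) and 3.07 in HuCC-A1 against HuCC-T1 tumors (SE 0.377, adjusted p = 2.68e-06). PCDHGB4, whose promoter window differs from it at 1 base, had 0.217 ± 0.208, 0.421 ± 0.190 and 0.108 ± 0.111 CPM (SD, n = 5) and was not called in any comparison. The share of stretches that occur in another gene was 19.9% for PCDHGB5.

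The C-type gene PCDHGC3, which is known to be active in many tissues besides brain, had 74.3, 85.0, 39.6, 71.5 and 57.3 CPM in HuCC-A1 replicates 1 to 5. It had 2.86, 3.41, 3.84, 5.76 and 5.12 CPM in EGI-1 and 21.9, 24.6, 28.3, 32.4 and 30.3 CPM in HuCC-T1 tumors. The order was HuCC-A1, HuCC-T1, EGI-1, with no overlap, and PCDHGC3 was 15.6-fold higher in HuCC-A1 (log2FC 3.96, SE 0.240, adjusted p = 5.05e-10) and 6.54-fold higher in HuCC-T1 than in EGI-1 tumors (log2FC 2.71, SE 0.229, adjusted p = 4.51e-08). HuCC-A1 exceeded HuCC-T1 tumors 2.38-fold (adjusted p = 9.09e-05). No stretch of its unshared exons occurs in another gene. Per kilobase of unshared exon it was the highest gamma gene in HuCC-A1 (20.2 CPM, before PCDHGB5 at 17.4 and PCDHGA10 at 16.3) and in HuCC-T1 tumors (8.45 CPM per kilobase, before PCDHGB6 at 4.83).

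The other C-type gamma genes were low. PCDHGC4 had 1.17, 0.499, 0.799, 1.96 and 1.56 CPM in HuCC-A1 replicates 1 to 5, 0.244, 0.453, 0.575, 0.931 and 1.13 CPM in EGI-1 and 0.447, 0.415, 1.53, 1.41 and 0.933 CPM in HuCC-T1 tumors. All groups overlapped, and it did not pass the test in HuCC-A1 against EGI-1 (log2FC 0.85, adjusted p = 0.162), HuCC-T1 against EGI-1 (log2FC 0.50, adjusted p = 0.422) or HuCC-A1 against HuCC-T1 tumors (log2FC 0.35, adjusted p = 0.573). PCDHGC5 had 3.18, 1.45, 2.24, 5.08 and 2.97 CPM in HuCC-A1 replicates 1 to 5, 0.335, 0.574, 1.13, 2.21 and 1.94 CPM in EGI-1 and 2.08, 2.25, 2.58, 3.14 and 4.82 CPM in HuCC-T1 tumors. It was called higher than in EGI-1 tumors in HuCC-A1 (log2FC 1.27, adjusted p = 0.0262) and HuCC-T1 tumors (log2FC 1.26, adjusted p = 0.0288) although the groups overlapped. The first call was lost when HuCC-A1 replicate 4 or any of EGI-1 replicates 1 to 3 was left out (adjusted p between 0.0539 and 0.097), and without HuCC-T1 replicate 5 or the same EGI-1 tumors the second (between 0.0578 and 0.082). HuCC-A1 and HuCC-T1 tumors had a log2FC of 0.01 (adjusted p = 0.989).

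PCDHGB6 was the gamma gene called lower in HuCC-A1 tumors than in both other models. It had 2.83, 2.10, 2.13, 1.83 and 2.57 CPM in HuCC-A1 replicates 1 to 5, 9.96, 9.49, 12.1, 17.6 and 18.4 CPM in EGI-1 and 19.5, 17.3, 32.1, 31.5 and 10.8 CPM in HuCC-T1 tumors. Every HuCC-A1 tumor was below every other tumor, 5.89-fold against EGI-1 (log2FC -2.56, SE 0.299, adjusted p = 1.47e-06) and 9.68-fold against HuCC-T1 tumors (log2FC -3.28, SE 0.307, adjusted p = 1.1e-07). EGI-1 and HuCC-T1 tumors overlapped, and their call (log2FC 0.72, adjusted p = 0.0381) was lost with limma-voom (adjusted p = 0.0526), with only these 10 tumors (0.0547) and without HuCC-T1 replicate 3 (0.123) or 4 (0.118) or EGI-1 replicate 1 (0.0948), 2 (0.0978) or 3 (0.0783). PCDHGB7, which lies behind PCDHGA10 in the cluster, had 3.08, 0.999, 1.46, 2.03 and 1.81 CPM in HuCC-A1 replicates 1 to 5, 1.16, 1.75, 1.86, 1.95 and 1.33 CPM in EGI-1 and 2.87, 2.66, 3.74, 3.49 and 5.41 CPM in HuCC-T1 tumors. HuCC-T1 tumors were above every EGI-1 tumor (log2FC 1.17, adjusted p = 0.00466) and, with overlap, above HuCC-A1 tumors (log2FC -0.95, adjusted p = 0.0158, not called without HuCC-T1 replicate 5, adjusted p = 0.05). HuCC-A1 against EGI-1 tumors did not pass the test (log2FC 0.22, adjusted p = 0.572).

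Several gamma genes near the start of the cluster were lowest in HuCC-T1 tumors. PCDHGB1 had 8.95, 4.64, 5.11, 7.14 and 9.65 CPM in HuCC-A1 replicates 1 to 5, 3.38, 2.72, 3.31, 3.37 and 5.60 CPM in EGI-1 and 0.128, 0.207, 1.01, 0.388 and 0.404 CPM in HuCC-T1 tumors. HuCC-T1 tumors were below all others (log2FC -3.11, SE 0.434, adjusted p = 1.34e-05, against EGI-1, and log2FC 4.06, SE 0.446, adjusted p = 7.48e-07 for HuCC-A1 against HuCC-T1 tumors). The call in HuCC-A1 against EGI-1 tumors (log2FC 0.95, adjusted p = 0.0430) was lost when any of 7 of the 10 tumors was left out (HuCC-A1 replicates 1, 4 and 5 and EGI-1 replicates 1 to 4, adjusted p between 0.078 and 0.106), and without a filter on low counts (0.0673). PCDHGA5 had 0.460, 0.999, 1.44, 1.96 and 1.90 CPM in HuCC-A1 replicates 1 to 5, 1.16, 1.84, 2.85, 2.36 and 2.84 CPM in EGI-1 and 0.479, 0.242, 0.336, 0.212 and 0.435 CPM in HuCC-T1 tumors. It was lower in HuCC-T1 than in EGI-1 (log2FC -2.68, SE 0.430, adjusted p = 5.66e-05), with no overlap, and than in HuCC-A1 tumors (log2FC 1.98, adjusted p = 7.87e-04), with overlap in HuCC-A1 replicate 1. HuCC-A1 against EGI-1 tumors did not pass the test (log2FC -0.70, adjusted p = 0.139).

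The 12 A-type gamma genes together had 102.7 ± 19.9 CPM in HuCC-A1, 25.1 ± 5.50 CPM in EGI-1 and 14.0 ± 2.66 CPM in HuCC-T1 tumors (SD, n = 5), so that HuCC-T1 tumors, between 10.3 and 16.7 CPM, lay below all EGI-1 tumors, between 18.9 and 31.7 CPM. The 7 B-type genes had 65.4 ± 14.3, 23.2 ± 6.48 and 35.8 ± 9.37 CPM, and the 3 C-type genes 69.7 ± 17.7, 6.10 ± 2.36 and 31.4 ± 5.47 CPM. In HuCC-T1 against EGI-1 tumors, 6 A-type genes were lower and 1 was higher, 3 B-type genes were higher and 1 was lower, and 2 C-type genes were higher, beside 27.3% of all genes higher and 25.0% lower. These types hold few genes each. In HuCC-A1 tumors most of each sum came from 1 gene, with means of 72.7 CPM for PCDHGA10, 46.3 CPM for PCDHGB5 and 65.5 CPM for PCDHGC3. The sums there do not describe their types as a whole. The remaining 11 gamma genes with no value by tumor or mean above had log2FC values from -0.84 (PCDHGA6) to 1.84 (PCDHGA12) in HuCC-A1 against EGI-1 tumors, with 5 called higher. They ranged from -1.43 (PCDHGA4) to 0.11 (PCDHGB2) in HuCC-T1 against EGI-1 tumors, with 5 called lower, and from 0.25 (PCDHGB3) to 3.25 (PCDHGA4) in HuCC-A1 against HuCC-T1 tumors, with 6 called higher. Of all genes, 29.4%, 25.0% and 29.1% were called in these directions. These 11 genes were left after members had been picked partly for their calls, so their counts only describe what remained.

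Genes around the clusters were also more often called higher than lower in HuCC-A1 tumors. Of 99 other genes that lie within 1 Mb of the clusters, 56 were tested, and 28 were higher and 4 lower in HuCC-A1 tumors than in EGI-1 (median log2FC 0.62), beside 29.4% and 26.0% of all genes (median 0.06). In HuCC-T1 against EGI-1 tumors 7 were higher and 12 lower (median -0.30, all genes 0.06), and in HuCC-A1 against HuCC-T1 tumors 32 were higher and 3 lower (median 0.81, all genes 0.05). Of the 99 genes, 31 overlap the span of the clusters, and 28 of these are pseudogenes or noncoding transcripts, antisense transcripts among them. In HuCC-A1 against EGI-1 tumors, the 45 tested genes outside the span had 24 higher and 3 lower (median 0.43), and the 11 tested within it had 4 higher and 1 lower (median 0.82). PURA, a nucleic acid binding protein, had 57.3 ± 8.53, 21.8 ± 1.43 and 36.4 ± 4.04 CPM (SD, n = 5, for HuCC-A1, EGI-1 and HuCC-T1), with a log2FC of 1.39 in HuCC-A1 against EGI-1 (adjusted p = 1.06e-07). APBB3, which binds the amyloid precursor protein, had 84.6 ± 25.3, 43.9 ± 2.86 and 24.5 ± 6.70 CPM (log2FC 1.79, adjusted p = 3.82e-06 in HuCC-A1 against HuCC-T1). The growth factor gene HBEGF had 342 ± 349, 23.2 ± 12.7 and 31.2 ± 14.7 CPM (log2FC 3.88, adjusted p = 1.82e-05 in HuCC-A1 against EGI-1), and the HuCC-A1 tumors ranged from 140 to 956 CPM. The lncRNA MALINC1 was higher in HuCC-A1 tumors than in EGI-1 (log2FC 1.48, adjusted p = 1.27e-04). AC011379.2 went the other way, with 14.99 ± 5.92 CPM in HuCC-T1 against 3.25 ± 1.29 and 4.04 ± 1.14 CPM in HuCC-A1 and EGI-1 tumors (log2FC -2.20, adjusted p = 2.12e-05 in HuCC-A1 against HuCC-T1), and AC005618.1 was lower in HuCC-T1 than in EGI-1 tumors (log2FC -1.07, adjusted p = 0.00905). PCDH1, a protocadherin next to the clusters but outside them, had 396 ± 84.1, 385 ± 30.4 and 132 ± 39.4 CPM and was lower in HuCC-T1 than in EGI-1 (log2FC -1.55, adjusted p = 5.27e-06) and HuCC-A1 tumors. The part of the region as a whole in the members' differences was not tested.

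Genes known to control the clusters were expressed in all models. Of 26 such genes, 8 were higher and 6 lower in HuCC-A1 tumors than in EGI-1, 10 higher and 7 lower in HuCC-T1 than in EGI-1 tumors, and 6 higher and 9 lower in HuCC-A1 than in HuCC-T1 tumors. The shares of all genes called higher and lower were 29.4% and 26.0%, 27.3% and 25.0%, and 29.1% and 27.2% in these comparisons. CTCF, which binds the conserved element of many of these promoters and anchors loops to an enhancer, had 108 ± 13.2, 66.0 ± 5.59 and 61.5 ± 4.07 CPM (SD, n = 5, for HuCC-A1, EGI-1 and HuCC-T1). It was higher in HuCC-A1 tumors than in EGI-1 (log2FC 0.71, adjusted p = 4.46e-05) and HuCC-T1 tumors (log2FC 0.81, adjusted p = 1.11e-05), and HuCC-T1 against EGI-1 did not pass the test (log2FC -0.10, adjusted p = 0.465). RAD21, a cohesin subunit, had 109.7 ± 8.91, 210.0 ± 13.5 and 262 ± 36.9 CPM and was lower in HuCC-A1 than in EGI-1 (log2FC -0.94, adjusted p = 5.17e-06) and HuCC-T1 tumors (log2FC -1.26, adjusted p = 1.9e-07). HuCC-T1 exceeded EGI-1 tumors (log2FC 0.32, adjusted p = 0.0347). SMCHD1, the silencing factor, had 187 ± 15.8, 105 ± 11.3 and 49.6 ± 14.3 CPM and was highest in HuCC-A1 (log2FC 0.83, adjusted p = 6.3e-04, against EGI-1) and lowest in HuCC-T1 tumors (log2FC -1.09, adjusted p = 6.25e-05, against EGI-1).

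The alternative cohesin subunits STAG2 and STAG1 were higher in HuCC-T1 than in EGI-1 tumors, by 2.49 (adjusted p = 1.4e-08) and 2.12 (adjusted p = 1.49e-07) on the log2 scale. STAG2 was also higher in HuCC-A1 tumors than in EGI-1 (log2FC 1.19, adjusted p = 3.1e-05). Of the DNA methylation genes, UHRF1, which directs maintenance methylation, was lower in HuCC-A1 tumors than in EGI-1, at -1.14 (adjusted p = 5.2e-04) and so was the methyltransferase gene DNMT3B, at -1.02 (adjusted p = 0.00791), both on the log2 scale. The methyltransferase gene DNMT3A was higher (log2FC 0.57, adjusted p = 0.0155), and DNMT1 did not pass the test (log2FC 0.02, adjusted p = 0.936).

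Of 16 tested genes whose proteins bind or cleave clustered protocadherins, 3 were higher and 5 lower in HuCC-A1 tumors than in EGI-1, 2 higher and 5 lower in HuCC-T1 than in EGI-1 tumors and 5 higher and 6 lower in HuCC-A1 than in HuCC-T1 tumors. Of all genes, 29.4%, 27.3% and 29.1% were higher and 26.0%, 25.0% and 27.2% lower in these comparisons. The gamma-secretase genes PSEN2 (log2FC -1.46, adjusted p = 1.2e-05) and PSENEN (log2FC -1.52, adjusted p = 0.00706) were lower in HuCC-T1 than in EGI-1 tumors, as was AXIN1 (log2FC -0.76, adjusted p = 0.00224), which binds PCDHGC3 protein. APH1A, also of the gamma-secretase, was lower in HuCC-A1 tumors than in EGI-1 (log2FC -1.07, adjusted p = 1.91e-05), as were NCKAP1 (log2FC -0.87, adjusted p = 1.53e-04) and ABI1 (log2FC -0.79, adjusted p = 1.12e-04) of the WAVE complex, which acts on actin. Among protocadherins outside the clusters, 7 of 12 were tested, with 3 higher and 1 lower in HuCC-A1 tumors than in EGI-1, 2 higher and 2 lower in HuCC-T1 than in EGI-1 and 3 higher and 2 lower in HuCC-A1 than in HuCC-T1 tumors. The shares of all genes just given apply here too. PCDH9 had 29.7 ± 7.60, 0.109 ± 0.196 and 86.8 ± 29.8 CPM (SD, n = 5) and was higher in both intrahepatic models than in EGI-1 tumors (log2FC 8.09, adjusted p = 7.45e-09 in HuCC-A1 and log2FC 9.64, adjusted p = 2.21e-09 in HuCC-T1). PCDH7 had 136 ± 33.6, 216 ± 41.5 and 89.4 ± 18.7 CPM and was highest in EGI-1 tumors (log2FC -1.27, adjusted p = 3.42e-05, for HuCC-T1 against EGI-1).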

How the data were processed

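RNA of 15 vehicle-treated CDX tumors, grouped by the sample labels into 3 models of 5, was analyzed. Per the submitters' processing notes, the authors used CASAVA, aligned reads to GRCh38 with HISAT2 version 2.0.5 and made the deposited raw counts per gene with featureCounts version 1.5.0-p3, from libraries of a directional kit. The sources used here do not state the strand setting, the annotation behind the counts, how reads with several positions were treated or whether mouse reads were removed, and the labels name no batch. Gene symbols, exons and coordinates came from GENCODE release 29, in which all 58735 identifiers were found. Promoters came from RefSeq, with the first listed start of each gene.

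Tests ran on the counts in edgeR 4.0.16 under R 4.3.3 (TMM factors, filterByExpr on 3 groups, quasi-likelihood F test, 12 residual degrees of freedom, common biological coefficient of variation 0.338). P-values were Benjamini-Hochberg adjusted over 21019 genes. The script was tested on simulated data. Folds against a model without counts used a floor of 3 counts over the group, and intervals cover counting error only. Alternatives were RLE factors, no filter, at least 10 counts in every tumor, only the 10 tumors compared, a block for replicate number, leaving out each tumor, limma-voom (limma 3.58.1) and DESeq2 1.42.0. Figures were drawn with matplotlib 3.10.9. Members and gene lists were chosen with earlier results of these data known. Given in every tumor were the C-type members, the member with the highest mean CPM of each cluster in each model and, per cluster and comparison, the 2 most changed called members in each direction with at least 1 CPM. From other lists, up to 3 of the most changed called genes per comparison were eligible, and CTCF, RAD21 and SMCHD1 were always given. PCDHA2, PCDHA5, PCDHA7, PCDHA8, PCDHB1, PCDHB7, PCDHGB4, PCDHGA8 and the members named at the ends of ranges were chosen after their values were seen. So were KRT19, INA, NEFM, KDR, TUBB3, DNMT1 and DNMT3A.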

Additional observations from a re-analysis of the deposited data

Results flagged for a closer look

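In 72 groups of 5 tumors (the named members and the cluster sums in each model), 1 tumor stood apart from the other 4 in 10, by a gap of more than 0.71 of the group's range. Chance gives about 1 in 20 for normally distributed values, a rate that does not apply to groups with counts of 0, such as PCDHA4 in EGI-1 and PCDHAC1 in HuCC-T1 tumors. In HuCC-T1 replicate 1, PCDHA4 had 1.309 CPM (0 to 0.2615 CPM in the others) and PCDHA10 0.5429 CPM (0 to 0.1244 CPM). In EGI-1 replicate 2, PCDHA4 had 0.2115 CPM (0 in the others) and the alpha cluster together 1.692 CPM (0.4141 to 0.7008 CPM). PCDHA12 had 0.4244 CPM in HuCC-A1 replicate 1 (0 to 0.0643 CPM in the others), and PCDHB8 had 9.836 CPM in HuCC-A1 replicate 2 (22.23 to 25.96 CPM). PCDHGB1 had 5.601 CPM in EGI-1 replicate 5 (2.719 to 3.382 CPM). In HuCC-T1 tumors, PCDHAC1 had 0.1727 CPM in replicate 2 (0 to 0.0353 CPM), PCDHB4 1.199 CPM in replicate 4 (0.3109 to 0.5429 CPM) and PCDHB5 1.555 CPM in replicate 5 (0.0958 to 0.2241 CPM). Differences between models in the effect of a common contrast could not be examined, since each tumor belongs to 1 model and all received the vehicle.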

How the results depend on the processing

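Under a filter of 10 or more counts in every tumor, 21 members were tested in place of 42, and 8 in place of 18 were higher in HuCC-A1 tumors than in EGI-1, 9 in place of 17 lower in HuCC-T1 than in EGI-1 and 11 in place of 26 higher in HuCC-A1 than in HuCC-T1 tumors. This setting leaves fewer genes to be called, and the counts in the opposite directions are among the values that follow. The other 162 values of these counts and of the cluster sums stayed within 1.5 times the count or within 1 SD of the sum. When each tumor was left out in turn, between 15 and 21 members were higher and between 4 and 6 lower in HuCC-A1 tumors than in EGI-1, between 6 and 10 higher and between 14 and 17 lower in HuCC-T1 than in EGI-1, and between 25 and 28 higher and 3 lower in HuCC-A1 than in HuCC-T1 tumors. Same-numbered tumors did not vary together (correlation of deviations from the group means between -0.105 and 0.186 over 15 pairs, and 9 of 30 best matches with the own number). With replicate number as a block, 18 were higher and 5 lower in HuCC-A1 tumors than in EGI-1, 7 higher and 18 lower in HuCC-T1 than in EGI-1 and 26 higher and 3 lower in HuCC-A1 than in HuCC-T1 tumors. In HuCC-T1 against EGI-1 tumors the block lost the calls of PCDHA4 (adjusted p = 0.114 from edgeR) and PCDHGB6 (0.0587) and gained that of PCDHB5 (0.00293).

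For named members, 9 alternatives gained and 37 lost a call, and 18 turned the direction of a difference that was not called. PCDHGC5 in HuCC-A1 against HuCC-T1 turned to -0.0052 with RLE factors, -0.0756 without a filter on low counts, -0.0355 with only these tumors, -0.0183 with the block, -0.0045 with DESeq2 and -0.0146 with limma-voom, and ranged from -0.3138 to 0.2446 with 1 tumor left out. PCDHA10 in HuCC-T1 against EGI-1 turned to -0.2407 with the block and -0.0454 with limma-voom, and ranged from -1.212 to 0.7013 with 1 tumor left out. In HuCC-A1 against EGI-1, PCDHB8 ranged from -0.2709 to 0.0143 (without HuCC-A1 replicate 2) and PCDHGB7 from -0.04051 (without HuCC-A1 replicate 1) to 0.3716 with 1 tumor left out. The cause was not tested. Alpha genes other than PCDHA4 and PCDHAC2 are limited by depth, with at most 155 counts over a model. The order per kilobase gave the same leading gene of each cluster and model when all exon bases were used.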
